A study of Arabidopsis thaliana with 14 samples.

Results

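The 50 probe sets described here were far brighter in light-grown than in dark-grown det2 seedlings of Arabidopsis thaliana, and differed little between dark-grown wild type and wild type given light for 2 h. A probe set is the group of array probes that reports on a transcript. They were chosen from group means of log2(signal + 16) by 3 conditions: light-grown minus dark-grown det2 of at least 3 (at least 8-fold on that scale), light minus dark between -0.6 and 0.6 in wild type, and the same band in wild type treated with brassinolide. Of 22746 probe sets, 17788 had a mean signal of at least 50 over all arrays, 52 of these met the rule, and 50 remained after PDF1.2 and PDF1.2b were left out by name. ECS1, also to be left out, did not meet the rule, with a light difference of 1.65 in wild type. Of the 50 members, 23 have a gene in the annotation used and 27 are named by probe set only.

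The study asked how brassinosteroids act when seedlings pass from darkness to light. Wild-type Col seedlings 7 days old had been grown in the dark (Col) or in the dark with brassinolide (Col_BL), and a set from each of these conditions was given light for 2 h (Col_DL and Col_BR_DL). The brassinosteroid-deficient mutant det2 was sampled at 7 days in darkness (det2-) or in light (det2-light), and at 14 days after growth in light followed by 8 h of darkness (det2-light-dark). Each of the 7 groups had 2 arrays. The labels do not say whether a pair came from separate cultures, and the p-values may therefore reflect technical spread only. The labels call the added hormone BL or BR, and its dose and duration and the light used are not given in the sources used here. No wild type grown in light and no det2 given light for 2 h was analysed here, so length of light and genotype cannot be told apart in the contrast that chose the members.

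Seedlings that germinate in darkness grow long, pale and closed, and light switches them to green, open growth. Transcripts of early light signalling respond soon after a shift to light, whereas others rise only as cotyledons and leaves expand and green tissue forms. Brassinosteroids favour the dark form of growth, and DET2 encodes a steroid reductase of their synthesis, so det2 seedlings are short even in darkness. Many genes of older green tissue encode small secreted or cysteine-rich proteins, glutathione and redox enzymes, receptor kinases and enzymes of defence compounds such as the glucosinolates.

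The arrays themselves differed between the groups in ways that touch every value here. The median signal lay between 187.9 and 218.6 on all 14 arrays. The 5′ to 3′ ratio of the actin control, a measure of RNA integrity and labelling, was 0.157 and 0.196 on the dark-grown det2 arrays and between 0.509 and 1.06 on the other arrays. The GAPDH ratio was 0.721 and 0.779 in dark-grown det2, 0.925 to 1.07 in wild type and 1.24 to 1.38 in the green det2 groups, and the ubiquitin ratio was 0.552 and 0.603, 0.693 to 0.857 and 1.06 to 1.09 in the same order. On these 2 controls the green det2 arrays lay above every wild-type array, which they did not on actin. The 25S ribosomal RNA control read between 16.5 and 109.9 in wild type, 838.3 and 976.7 in dark-grown det2, 5396 and 5934 in light-grown det2, and 14610 and 16082 in det2-light-dark. These controls therefore moved with the groups that chose the members, and their part in the members' differences was not tested. In whole seedlings, fewer cells of a type and less RNA per cell cannot be told apart.

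**Figure D1:**
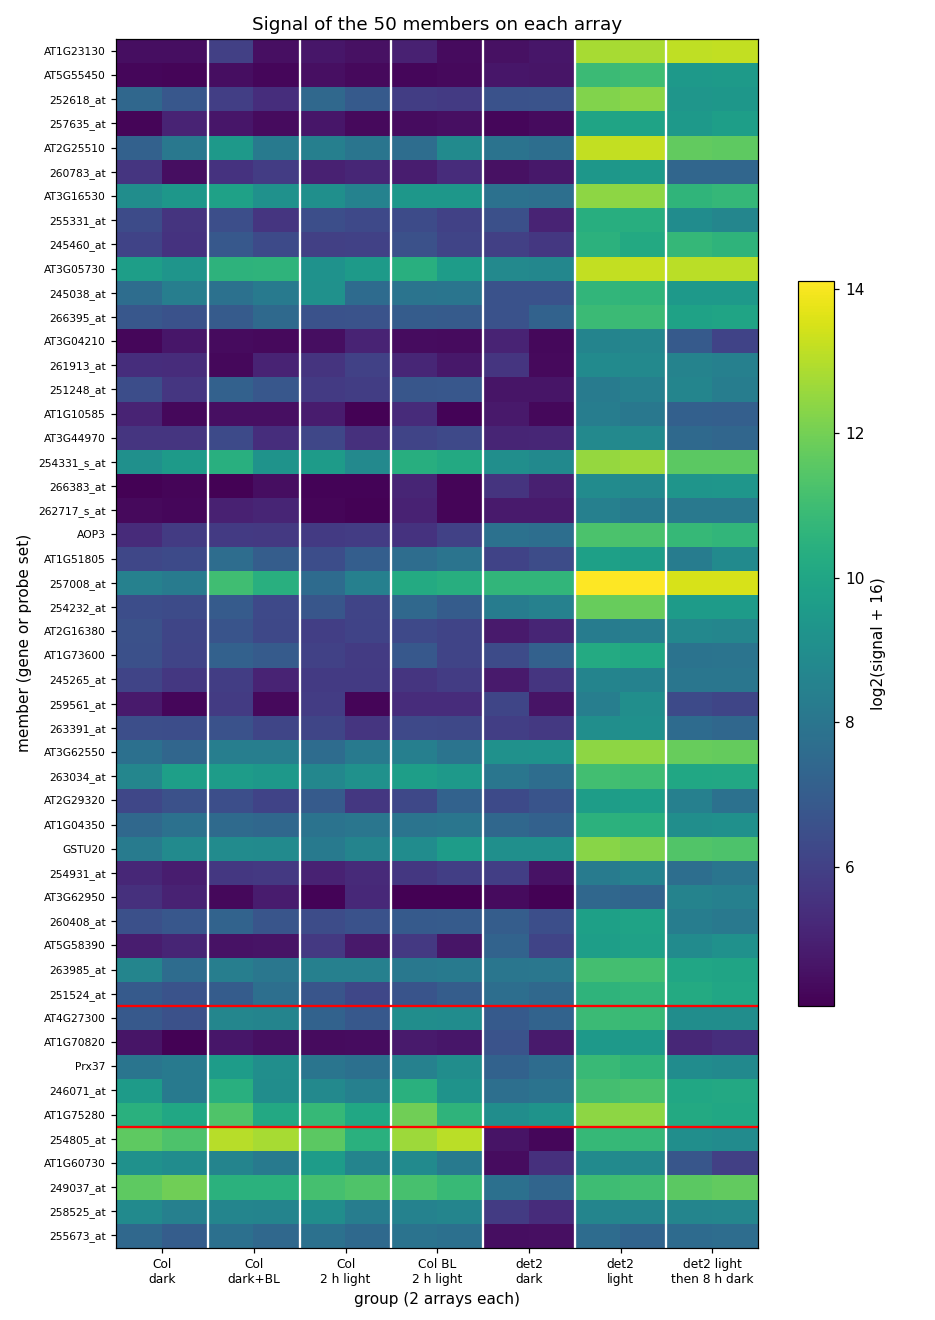
Signal of the 50 members (rows) on each of the 14 arrays (columns, 2 per group), as log2(signal + 16) by colour. Above the first red line stand 40 members whose 4 green det2 arrays lie above all dark-grown det2 and wild-type arrays, between the lines 5 members in which light-grown det2 lies above all wild-type arrays but det2-light-dark overlaps wild type or dark-grown det2, and below the second line 5 members whose light-grown det2 signal overlaps wild type.

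The members fell into 3 patterns once the wild-type level was read. That level entered the rule only through the minimum mean over all arrays. Members low in wild type reached this minimum through the green det2 arrays, so the counts below are a description only. Light-grown det2 was above all 12 other arrays for 39 members, where 10.4% of all tested probe sets were, and above all wild-type arrays for 45, where 24.7% were. In 40 of 50 members both green det2 groups lay above every dark-grown det2 and wild-type array, against 9.59% of all 17788 tested probe sets, though light-grown over dark-grown det2 was part of the rule. In 5 more, AT4G27300, AT1G70820, Prx37, AT1G75280 and 246071_at, light-grown det2 lay above all wild-type arrays but det2-light-dark did not lie above all dark-grown det2 and wild-type arrays. In the last 5, 254805_at, AT1G60730, 249037_at, 258525_at and 255673_at, light-grown det2 was no higher than wild type on some arrays, and dark-grown det2 was the low group. The description of the set as light genes seen only in light-grown det2 therefore goes against the data for these 5. Some of the other 45 also had clear signal in wild type, such as AT1G75280 at 1052 to 3916. In 21 members every wild-type array was under 100. The det2-light-dark seedlings had also been grown in light, and 41 members lay above every wild-type array there, where 27.0% of tested probe sets did. Their arrays lay above the dark-grown det2 arrays for 49 members (37.7% of tested probe sets), a count from which nothing is read, since the rule chose members low in dark-grown det2.

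AT1G23130, of the Bet v 1 and major latex protein family of small ligand-binding proteins, had the largest difference, 8.21 on the log2 scale. Its signal was 7157 and 7340 in light-grown det2 and 7.0 and 10 in dark-grown det2. The wild-type arrays read 5.7 and 6.0 in the dark, 46.5 and 6.2 with BL, 10 and 7.0 after light and 16.2 and 4.7 after light with BL. In det2-light-dark it read 9186 and 9265, higher than on either light-grown det2 array. The low groups lie near the added constant of 16, so that constant sets much of the size of the difference.

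AT5G55450, of the lipid transfer protein family, small secreted proteins that carry lipids, showed the same division of the groups. It read 1917 and 2113 in light-grown det2 and 10.1 and 9.4 in dark-grown det2. On the 8 wild-type arrays it lay between 2.4 and 6.6, with a median of 3.7. In det2-light-dark it stood at 716.6 and 722.6, below light-grown det2 and above every other array. The difference between light-grown and dark-grown det2 was 6.30.

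AT2G25510 was among the brightest members, at 9234 and 9569 in light-grown det2 against 220.5 and 194.7 in dark-grown det2. Its wild-type values ran from 132.3 to 693.7, highest on 1 array of BL-treated dark-grown seedlings. AT3G05730, of the defensin-like family of cysteine-rich peptides, read 9464 and 9732 in light-grown det2, 425.5 and 404.4 in dark-grown det2, and 8641 and 8718 in det2-light-dark. Unlike AT1G23130 it was well above the added constant in all groups, with wild type between 566.8 and 1530. AT3G16530, of the legume lectin family of sugar-binding proteins, read 5456 and 5459 in light-grown det2 and 207.8 and 197.4 in dark-grown det2, and its 8 wild-type values, 349.1 to 891.7, all lay above dark-grown det2.

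**Figure D2:**
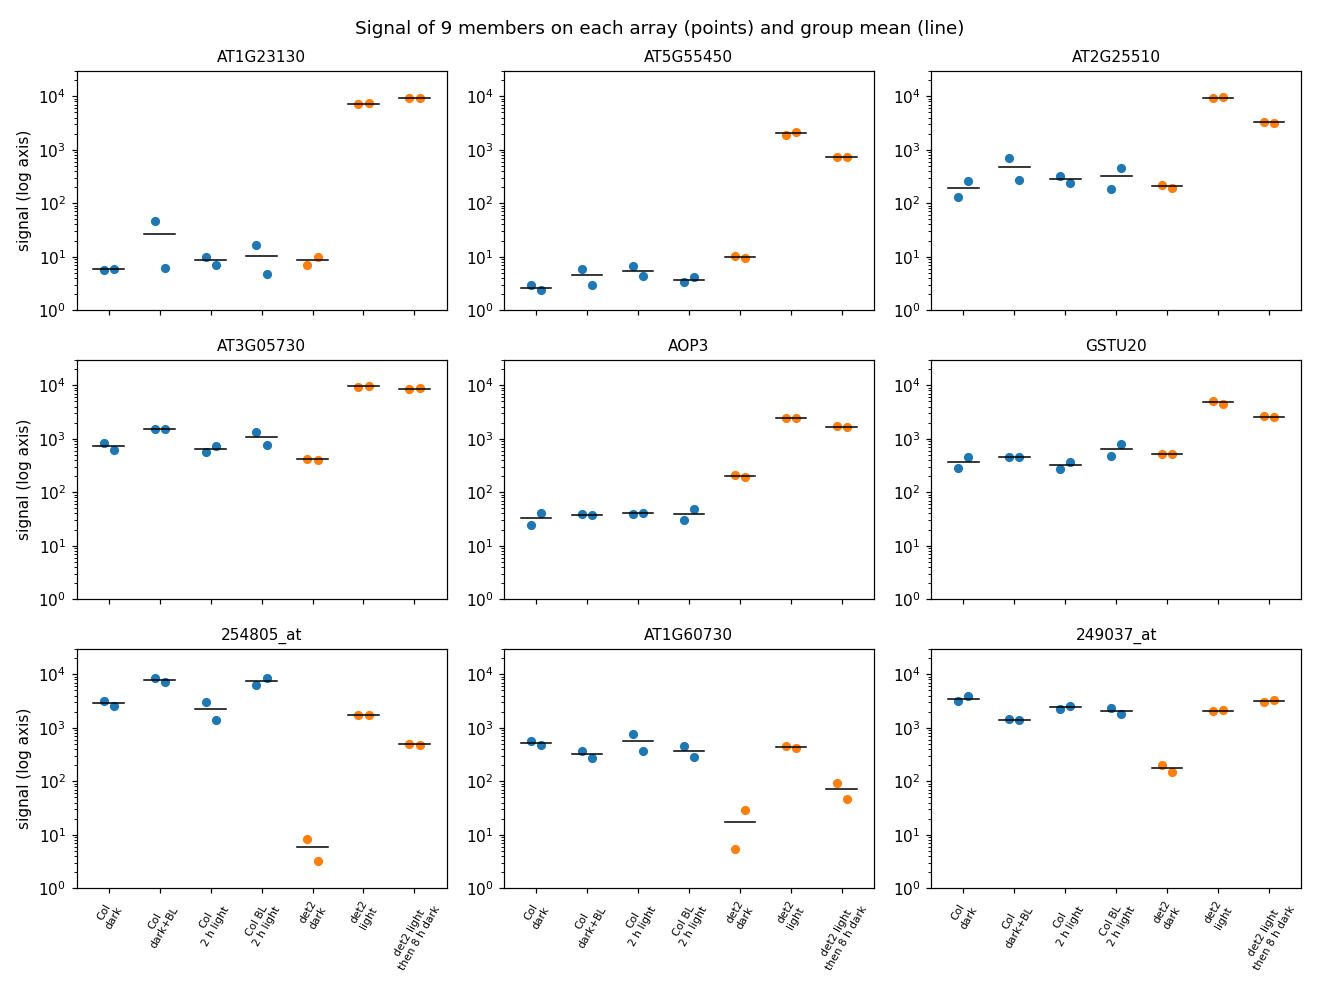
Signal of 9 members on each array (points, log axis), with the group mean as a line; wild type in blue and det2 in orange. AT1G23130 and AT5G55450 are low in all wild-type groups and in dark-grown det2, whereas 254805_at, AT1G60730 and 249037_at are high in wild type and low in dark-grown det2.

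Several members encode enzymes of secondary and redox metabolism. AOP3, a dioxygenase that modifies glucosinolate side chains, read 2482 and 2397 in light-grown det2, 211.9 and 194.2 in dark-grown det2, and between 24.2 and 49.1 in wild type. Dark-grown det2 thus lay above every wild-type array, and det2-light-dark stayed at 1754 and 1634. The related dioxygenase gene AT1G04350 read 1448 and 1387 in light-grown det2, while dark-grown det2 (154.6 and 129.7) lay just below its lowest wild-type array of 157.8. GSTU20, a glutathione transferase of the tau class, read 5175 and 4522 in light-grown det2, 523.6 and 520.1 in dark-grown det2 and 271.0 to 784.6 in wild type.

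The named members included 2 class III peroxidase genes, which encode secreted enzymes acting on cell wall phenolics, both of modest difference. Prx37 read 1883 and 1598 in light-grown det2 and 135.9 and 179.8 in dark-grown det2, with wild type between 206.9 and 766.6. AT5G58390 read 828.1 and 889.4 in light-grown det2 and 139.2 and 54.4 in dark-grown det2, and its wild-type values of 7.7 to 37.9 lay below both. The 2 genes therefore stood on opposite sides of wild type in dark-grown det2.

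Other enzyme genes among the members were AT3G44970 (a cytochrome P450), AT1G75280 (an isoflavone reductase-like enzyme), AT2G29320 (a short-chain dehydrogenase), AT1G73600 (a phosphoethanolamine methyltransferase of phospholipid synthesis) and AT1G70820 (phosphoglucomutase family). Their differences between light-grown and dark-grown det2 lay between 3.2 for AT2G29320 and 3.76 for AT1G70820. AT1G75280 was the brightest of them at 5420 and 5417 in light-grown det2, and also high in wild type, from 1052 to 3916. AT1G70820 read 717.6 and 683.3 in light-grown det2, with 84.1 and 12.1 in dark-grown det2, 20.8 and 26.5 in det2-light-dark and at most 11.8 in wild type.

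The remaining 3, like AT1G75280 and AT1G70820, lay above every wild-type array on both light-grown det2 arrays. AT3G44970 read 433.0 and 425.7 there, 18.9 and 19.4 in dark-grown det2 and 26.2 to 65.4 in wild type. AT2G29320 read 803.3 and 847.9, against 64.8 and 87.8 in dark-grown det2 and 36.8 to 134.6 in wild type. AT1G73600 read 1184 and 1041, against 66.5 and 128.6 in dark-grown det2 and 40.9 to 132.0 in wild type, so its dark-grown det2 arrays lay within the wild-type range.

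Other members encode receptors or signalling proteins. AT4G27300, of the S-locus lectin receptor kinases, read 1926 and 1805 in light-grown det2 and 106.3 and 138.5 in dark-grown det2. AT1G51805, a leucine-rich repeat receptor kinase, read 864.3 and 804.6 against 53.3 and 69.7. AT3G04210, an immune receptor-type gene of the TIR-NBS class, read 378.0 and 396.0 against 18.1 and 3.4. The bHLH transcription factor gene AT1G10585 read 306.5 and 257.0 against 11 and 3.8. AT3G62550, of the universal stress protein family, was brighter at 5456 and 5469 against 558.0 and 568.8, with wild type at 150.5 to 328.0.

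The glutaredoxin gene AT3G62950 and the Sec14-like lipid transfer gene AT2G16380 were dim members whose signal was higher in det2-light-dark than in light-grown det2. AT3G62950 read 157.7 and 143.6 in light-grown det2, 363.9 and 335.5 in det2-light-dark and 4.6 and 1.7 in dark-grown det2. AT2G16380 read 297.5 and 317.3 in light-grown det2, 422.7 and 392.5 in det2-light-dark and 11.9 and 19.1 in dark-grown det2. Neither gene overlapped between these 3 groups.

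Among members without a gene, 257008_at was the brightest of all 50, at 17670 and 17710 in light-grown det2, 1625 and 1619 in dark-grown det2 and 11762 and 11462 in det2-light-dark. The probe set 252618_at read 4777 and 5226 in light-grown det2, 82.7 and 85.3 in dark-grown det2, and 26.1 to 161.3 in wild type. The probe set 257635_at resembled AT5G55450, with 967.2 and 938.7 in light-grown det2 and at most 18.2 on any wild-type or dark-grown det2 array. Another 2 bright ones were 254331_s_at, at 5854 and 6316 against 506.3 and 446.8, and 254232_at, at 3515 and 3581 against 296.4 and 344.2. Their wild-type values differed, from 432.8 to 1342 for the first and from 53.9 to 161.2 for the second. Dim members such as 260783_at (653.6 and 741.6 against 7.2 and 10.6) and 266383_at (462.3 and 426.8 against 32.4 and 15.2) had wild-type values of at most 42.2 and 19.0.

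Over all members the difference between light-grown and dark-grown det2 had a median of 3.48 and ran down to 3.03 for 255673_at. In 12 members the dark-grown det2 mean was under 16, and in 21 members every wild-type array was under 100. Of the members, 2 (254331_s_at and 262717_s_at) are probe sets whose suffix marks several possible transcripts.

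The 5 members whose light-grown det2 signal overlapped wild type need their own account. The largest, 254805_at, read 8.4 and 3.2 in dark-grown det2, 1769 and 1715 in light-grown det2, and 1396 to 8694 in wild type, so light-grown det2 lay within the wild-type range. AT1G60730, of the aldo-keto reductase family, read 5.5 and 28.4 in dark-grown det2, 460.0 and 417.5 in light-grown det2, and 270.0 to 770.8 in wild type. 249037_at read 202.8 and 149.3 in dark-grown det2, 2036 and 2144 in light-grown det2, and 1421 to 3858 in wild type.

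The remaining pair were dimmer. 258525_at read 40.4 and 25.1 in dark-grown det2, 382.9 and 380.1 in light-grown det2 and 307.7 to 499.0 in wild type, and 255673_at read 5.8 and 6.2, then 183.1 and 145.1, then 117.2 to 225.2. For all 5 the dark-grown det2 arrays stood below every wild-type array, as they did for 16 of the 50 members in all, against 15.5% of tested probe sets. It was at least 2-fold below dark-grown Col for 13 members, where 9.31% of tested probe sets were, and at least 2-fold above for 7, where 9.44% were. Dark-grown det2 stood above every wild-type array for 6 members (AT5G55450, AT1G70820, AOP3, 254232_at, AT3G62550 and AT5G58390), against 21.5% of tested probe sets. The dark-grown det2 arrays chose the members by being low, so nothing is read from either count. They are also the arrays with the low actin ratio given above.

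The det2-light-dark group, which entered the rule only through the minimum mean over all arrays, was compared with the mean of the 4 wild-type groups. AT1G23130 was higher by 8.43 ± 0.30 on the log2 scale (SE; limma adjusted p = 6.59e-10), AT5G55450 by 5.2 ± 0.22 (adjusted p = 2.88e-09) and AOP3 by 5.01 ± 0.18 (adjusted p = 6.59e-10). GSTU20 was higher by 2.56 ± 0.19 and AT3G05730 by 3.22 ± 0.18. Of the 50 members, 41 passed as higher, where 29.8% of all tested probe sets did, and 2 passed as lower, where 22.0% did. The members' median was 2.11 and that of all tested probe sets 0.14.

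The 2 lower members were 254805_at, at 505.7 and 470.4 in det2-light-dark (-3.10 ± 0.22, adjusted p = 2.55e-07), and AT1G60730, at 93.4 and 47.3 (-2.40 ± 0.31, adjusted p = 4.26e-05). The 7 that did not pass were AT1G70820 (0.77 ± 0.40), Prx37 (0.38 ± 0.18), 246071_at (0.82 ± 0.38), 259561_at (1.26 ± 0.50), AT1G75280 (-0.55 ± 0.32), 258525_at (0.03 ± 0.19) and 255673_at (0.03 ± 0.19). Genotype, age, growth in light and the ribosomal RNA control all differ between these groups and cannot be told apart. The members also had to have a mean of 50, which those low in wild type, such as AT1G23130 and AT5G55450, reached through the green det2 arrays. The count and the adjusted p-values of such members are therefore a description and support nothing about the set. Without replicate 1 of det2-light-dark 6014 probe sets passed over the whole table in place of 9203. 249037_at, which passed at 0.52 ± 0.14, stood at -0.13 against dark-grown Col alone (adjusted p = 0.583), and at 0.44 without replicate 2 of det2-light-dark (adjusted p = 0.0995). 263034_at, which passed at 0.76 ± 0.22, was lost without either det2-light-dark array (adjusted p = 0.0688 without replicate 1 and 0.0871 without replicate 2).

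**Figure D3:**
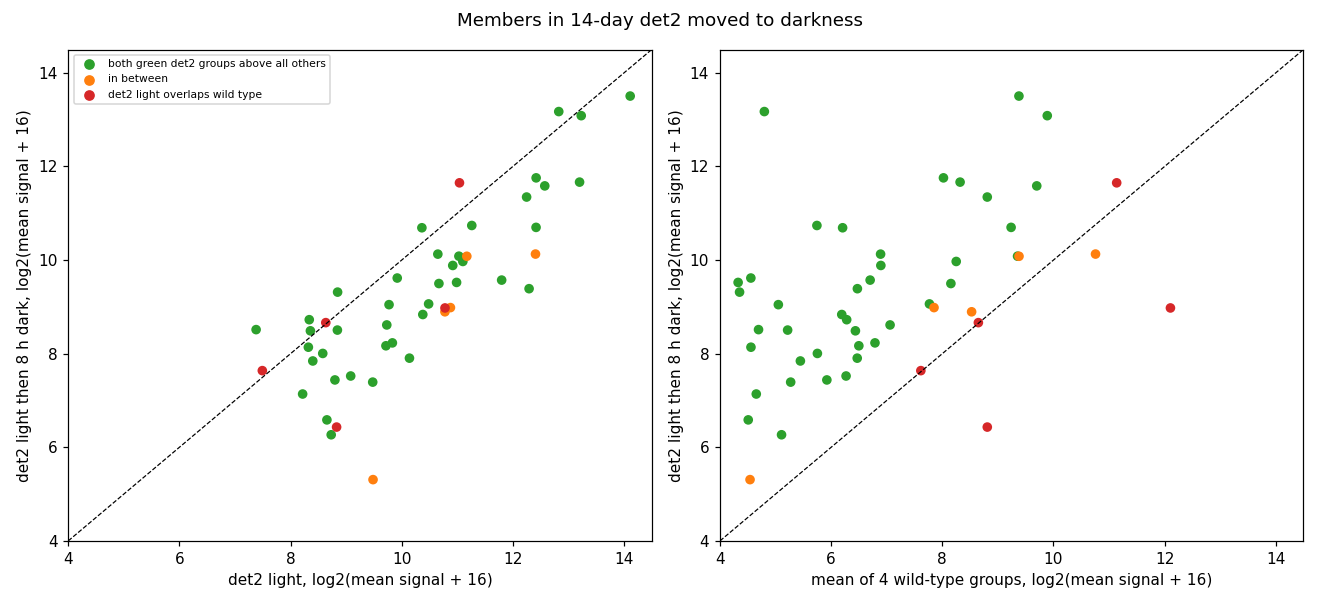
Mean signal of each member in 14-day det2 moved to darkness for 8 h (vertical axis) against light-grown det2 (left) and against the mean of the wild-type groups (right), all as log2(mean signal + 16), with the dashed line marking equal signal and colours for the 3 patterns of wild-type level. Most members lie below the line on the left and above it on the right, and 254805_at and AT1G60730 are the points far below the line on the right.

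Against light-grown det2, the det2-light-dark signal was at least 2-fold lower for 27 members, where 3.87% of all tested probe sets were, and at least 2-fold higher for 1, AT3G62950, where 2.81% were. The other 22 members lay within 2-fold. The members were chosen for high light-grown det2 values, which this difference shares, and the groups differ in age as well as in the hours of darkness, so these are values with no test. The largest falls in value were those of AT1G70820 (-4.18), 252618_at (-2.90, from 4777 and 5226 to 645.4 and 663.5) and AT1G60730 (-2.45).

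AT3G05730 (-0.14), 262717_s_at (-0.18), 257635_at (-0.31) and 261913_at (-0.34) were among those close to their light-grown level. The 7 members above light-grown det2 on both det2-light-dark arrays were AT1G23130, AT2G16380, AT3G62950, 245460_at, 266383_at, 249037_at and 258525_at, with differences from 0.03 to 1.13. Across all tested probe sets 34.0% lay above in this way and 30.0% below, as 41 members did. The members thus did not share 1 pattern after the move to darkness at 14 days.

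BL in wild type was the other comparison tested. In dark-grown seedlings 7 of 50 members passed (3.42% of all tested probe sets did), 5 higher and 2 lower, where 1.53% of tested probe sets passed as higher and 1.89% as lower. After light for 2 h, 4 members passed (4.25% of tested probe sets did), 3 as higher and 1 as lower, where 2.17% and 2.08% did. These 4 had also passed in the dark, and of all tested probe sets 0.832% passed as higher and 1.07% as lower in both conditions. The rule keeps each member's BL values in the dark and after light within 1.2 of each other on the log2 scale, so the second comparison is no independent repeat of the first.

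AT4G27300, the S-locus lectin receptor kinase gene, read 101.5 and 79.9 in dark-grown wild type and 396.2 and 368.9 with BL. After light it read 135.1 and 98.4 without BL and 493.2 and 482.0 with BL. It rose by 1.91 ± 0.19 in the dark and by 1.94 ± 0.19 after light (limma adjusted p = 0.000178 and 0.000148), and the groups did not overlap. Its signal in det2-light-dark, 490.5 and 491.0, was close to that of the BL-treated wild type.

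257008_at read 345.1 and 286.2 in the dark and 2065 and 1361 with BL, and 175.6 and 335.2 after light against 1178 and 1319 with BL. It rose by 2.36 ± 0.25 in the dark and by 2.28 ± 0.25 after light (adjusted p = 0.000217 and 0.000291). In dark-grown det2 it read 1625 and 1619, within the range of its BL-treated wild-type arrays. Both AT4G27300 and 257008_at passed in both conditions with wild-type arrays alone and without each array of the 2 groups compared in turn.

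254805_at, already high in wild type, read 3151 and 2556 in the dark and 8369 and 7207 with BL, and 3032 and 1396 after light against 6377 and 8694 with BL. It rose by 1.45 ± 0.28 in the dark and 1.85 ± 0.28 after light (adjusted p = 0.0141 and 0.00306). In the dark this call was lost without replicate 2 of Col (adjusted p = 0.0997), without replicate 1 of Col_BL (0.122), with wild-type arrays alone (0.0849) and with a pseudocount of 1 (0.0527). This is also the member that was nearly without signal in dark-grown det2.

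252618_at read 154.9 and 95.4 in the dark and 45.1 and 26.1 with BL, and 161.3 and 106.0 after light against 43.4 and 38.7 with BL. It fell by 1.44 ± 0.26 and by 1.37 ± 0.26 (adjusted p = 0.00821 and 0.00967). Neither call held when wild type was fitted on its own (adjusted p = 0.0813 and 0.0824), nor in the dark without replicate 1 of Col (0.0564) or replicate 2 of Col_BL (0.0636), nor after light without replicate 1 of Col_DL (0.0933) or replicate 2 of Col_BR_DL (0.0725). 249037_at fell in the dark, from 3163 and 3858 to 1435 and 1421 (-1.28 ± 0.17, adjusted p = 0.00149), and stood at -0.23 ± 0.17 after light. Its difference between the conditions was not tested, since the rule bounds it.

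The peroxidase gene Prx37 rose with BL in the dark, from 237.2 and 278.9 to 766.6 and 510.0 (1.23 ± 0.23, adjusted p = 0.0114), and stood at 0.86 ± 0.23 after light (adjusted p = 0.0568). The defensin-like gene AT3G05730 rose in the dark from 828.0 and 622.0 to 1494 and 1530 (1.06 ± 0.22, adjusted p = 0.0212), and stood at 0.65 ± 0.22 after light (adjusted p = 0.141). Neither call held when wild type was fitted on its own (adjusted p = 0.0750 and 0.146) or without replicate 1 of Col_BL (0.136 and 0.117). Prx37 was also lost without replicate 1 of Col (0.0571), and AT3G05730 without replicate 2 of Col (0.156), without replicate 2 of Col_BL (0.0869) and without a variance trend (0.0542).

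The marker genes AT1G23130 (0.77 ± 0.38 and 0.08 ± 0.38) and AT5G55450 (0.13 ± 0.28 and -0.12 ± 0.28) did not pass with BL in the dark or after light. AOP3 did not pass either (0.18 ± 0.23 and -0.02 ± 0.23). In wild type AT5G55450 read 2.4 to 6.6, and AT1G23130 at most 16.2 apart from a Col_BL array at 46.5. Signals so near the added constant of 16 can hardly show a change, so nothing is read from either marker here. Over all members the median BL difference was 0.30 in the dark and 0.35 after light, against 0.05 and 0.08 for all tested probe sets. In the dark 14 members were under 0.05 before adjustment, and also 14 after light.

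**Figure D4:**
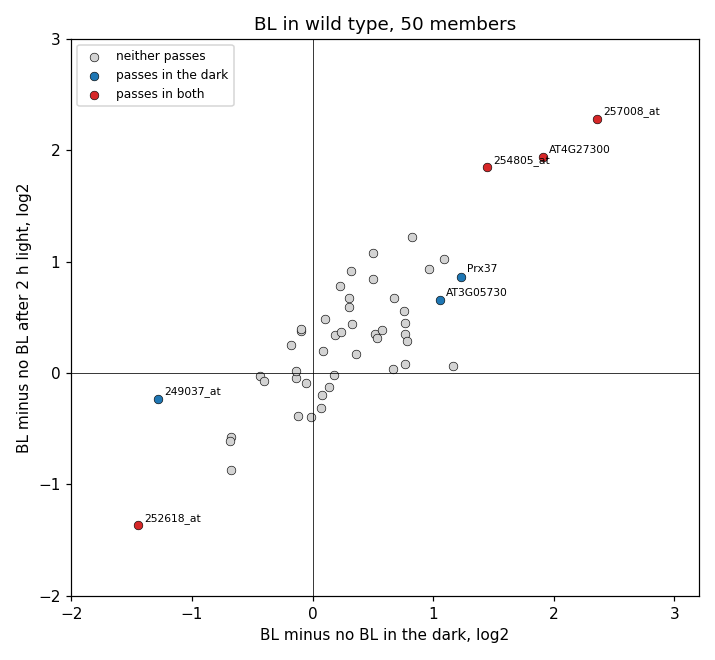
Difference between BL-treated and untreated wild type for each of the 50 members, in the dark (horizontal axis) and after 2 h of light (vertical axis), on the log2(signal + 16) scale. AT4G27300, 257008_at, 254805_at and 252618_at pass in both, and the points lie near the diagonal, where the rule keeps them.

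Other genes of the 2 marker families were mixed. Of 13 tested genes of the Bet v 1 and major latex protein family, 3 were higher and 4 lower in det2-light-dark than in wild type, with a median of 0.22, where 29.8% and 22.0% of all tested probe sets passed and their median was 0.14. AT1G23120, the gene next to AT1G23130 on chromosome 1, read 358 and 385 in light-grown det2 and 1629 and 1177 in dark-grown det2, a difference of -1.85, and it fell with BL in the dark (-1.58, adjusted p = 0.00263) and after light (-1.11, adjusted p = 0.0162). AT1G14930 of the same family read 1334 and 1312 in dark-grown det2, 2.7 and 1.5 in light-grown det2 and 36.4 and 4.7 in det2-light-dark, opposite to AT1G23130, and was lower in det2-light-dark than in wild type (-3.22 ± 0.43, adjusted p = 4.79e-05).

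Of 9 tested lipid transfer protein genes, 5 were higher and 3 lower in det2-light-dark than in wild type, with a median of 0.74, beside the same 29.8% and 22.0% of all tested probe sets. AT5G48490 was higher by 3.08 ± 0.52 (adjusted p = 0.000328), whereas AT4G33550 was lower (-2.68 ± 0.16). AT4G12490 and AT4G12500 rose with BL in the dark, by 2.07 and 2.11, and after light, by 2.39 and 1.98, whereas AT5G55450 did not pass. These lists include AT1G23130 and AT5G55450 themselves.

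BCAT4, which starts the lengthening of methionine for glucosinolates, was the only glucosinolate gene of its list with a named probe set. It read 3789 and 4468 in light-grown det2, 153.3 and 136.3 in dark-grown det2, and between 34.5 and 170.4 in wild type. In det2-light-dark it was higher than wild type by 4.93 ± 0.24. It is named here after its values were seen, and was no member because its light difference in BL-treated wild type was -0.76.

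Green tissue markers also differed between the groups. The summed signal of 6 green mesophyll genes, among them PSAN, PSBY and RCA, lay between 15755 and 20697 on the 4 dark-grown wild-type arrays, between 40975 and 45202 after light for 2 h, at 37702 and 40400 in dark-grown det2, between 75210 and 76767 in light-grown det2 and between 51968 and 53610 in det2-light-dark. This sum was higher in wild type after light than before it on every array. The rule itself kept the members' light differences in wild type between -0.6 and 0.6, so nothing is read from that contrast with the members. Between light-grown and dark-grown det2, 5 of the 6 differed by 0.60 to 1.93 on the log2 scale and LHCB4.3, named after its values were seen, by -0.45. The summed signal of the root hair genes EXPA7 and EXPA18 was 142.4 and 192.7 in dark-grown det2, 633.2 and 668.9 in light-grown det2, 482.0 and 594.9 in det2-light-dark and between 86.4 and 794.7 in wild type. The stomatal genes SPCH, MUTE and FMA (FAMA) summed to 183.0 and 231.6 in dark-grown det2, 552.3 and 564.0 in light-grown det2, 536.9 and 544.0 in det2-light-dark and 73.3 to 216.9 in wild type. Within that sum MUTE ran the other way, from 54.7 and 56.8 in dark-grown det2 to 45.9 and 36.1 in light-grown det2 and 22.1 and 20.5 in det2-light-dark.

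The trichome gene TRY read 71.3 to 107.7 on the green det2 arrays and 19.7 to 65.3 on the rest. ICL, of oil breakdown in young seedlings, ran the other way, from 13506 and 13704 in dark-grown det2 to 792.2 and 845.8 in light-grown det2 and 6.4 and 17.1 in det2-light-dark. List genes read as low as 1.5 (AT1G14930 in light-grown det2), and without detection calls their presence on an array was not judged. In det2-light-dark 5 of the 6 mesophyll genes were higher than the mean of the 4 wild-type groups and LHCB4.3 was lower (-0.99). Of all tested probe sets 29.8% were higher and 22.0% lower. That mean joins dark-grown and light-treated wild type. LHCB4.1, RCA and PSAN lay above every wild-type array. PSBY (6601 and 6545) lay below every light-treated wild-type array (7346 to 8686), and LHCB4.2 lay among them. LHCB4.3 (281.5 and 322) lay within the range of dark-grown wild type (242.4 to 331.9). In the same comparison FMA was higher (2.28), SPCH did not pass (0.66), MUTE was not tested and neither root hair gene passed. Both tested genes of the salicylic acid and defence list, GRX480 (-1.35) and AT5G39580 (-1.88), and the wax gene WSD1 (-3.76) were lower, and no jasmonate gene was tested. The part that different shares of root, stomatal or green tissue have in the members' signal was not tested.

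The 23 members with a gene lie on all 5 nuclear chromosomes, 9 of them on chromosome 1 and 6 on chromosome 3, in the TAIR10.1 annotation. Of 33 tested genes within 2 places of a member, 0 were members and 5 (15.2%) were at least 2-fold higher in light-grown than dark-grown det2, as were 11.0% of all tested probe sets. The highest neighbours were AT1G70810 beside AT1G70820 (2.24), AT2G29340 and AT2G29310 near AT2G29320 (2.00 and 1.86) and AT1G23140 beside AT1G23130 (1.59). AT4G08780, a further peroxidase gene beside Prx37, stood at 1.18, and whether transcripts of such close relatives bind each other's probes was not tested. AOP1, beside AOP3, stood at 0.10.

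The edges of the rule were densely filled. Just inside the rise threshold stood 255673_at (3.03), 258525_at (3.05) and 251524_at (3.05), and just outside it AT4G00780 (2.98), 253606_at (2.98), AT2G18480 (2.96) and 246880_s_at (2.96). Another 98 probe sets met the rise but lay outside the wild-type band. Those nearest to it were the sucrose-phosphate synthase gene ATSPS4F, at -0.601 in BL-treated wild type, and AT1G43910, at 0.606 in wild type, against AT1G73600 (-0.60) and AT5G58390 (0.599) just inside.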

How the data were processed

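Total RNA was measured on 14 one-colour Affymetrix arrays, 2 in each of 7 groups. The values are linear intensity values that the authors deposited as a single table. The submitters' processing notes name MAS5 and limma, without a version in what was used here. The mean after trimming was 500.0 throughout, which shows a common scaling by the authors, and no further scaling was applied. Detection calls and probe-level values were not used.

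From the 22810 probe sets, 64 controls and 4958 with a mean under 50 were removed. limma 3.58.1 (R 4.3.3) fitted the 7 group means to log2(signal + 16) over all 14 arrays, using a variance trend and Benjamini-Hochberg adjustment over 17788 probe sets at 0.05. The fit was tested on simulated data. Tests were limited to contrasts that the rule's differences do not contain: det2-light-dark against wild type, and BL in the dark and after light. The arrays of all these contrasts still enter the minimum mean, and the wild-type arrays also enter the band conditions of the rule. Figures were drawn with matplotlib 3.10.9.

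Probe sets took genes from the platform annotation (13513 with 1 gene, 503 with several, 8730 with none listed), of which 13436 matched a reference entry. All 23 members with 1 gene are named, as are up to 4 genes of each list beside its members, the probe sets nearest each threshold and LHCB4.3, added after its values were seen. Roles of loci are background knowledge. Of 154 genes in 11 lists, 41 could be matched to a probe set and 38 passed the filter. The members and lists were chosen with earlier results of these data known. Alternatives changed the pseudocount, filter, scaling, variance trend, replicate block, arrays in the fit, comparator and rule thresholds. Promoter and protein sequences were not used here.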

Additional observations from a re-analysis of the deposited data

How the results depend on the processing

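With 2 arrays per group, array number limits every value, and signals near 16 rest on the added constant. The rule gave 50 members and 31 with a pseudocount of 64 (24 shared), 90 with a rise of 2.5, 24 with a rise of 3.5 and 25 with a band of 0.4. Leaving out 1 array gave 43 to 62, of which 38 to 50 were shared, and 57 (37 shared) came with a pseudocount of 1. For det2-light-dark against wild type the table's calls ran from 6014 to 9300 with 1 array left out, and members called higher from 39 to 44 and lower from 2 to 3. 249037_at turned to -0.128 against dark-grown Col alone, since that comparator leaves out the 3 other wild-type groups. For BL in the dark, 608 calls became 175 with wild-type arrays alone and 370 with array weights by genotype, and 184 (without Col_BL replicate 1) to 526 with 1 array left out, 287 without Col replicate 2. Members higher went from 5 to 2 and lower from 2 to 1 with wild-type arrays alone, and without 1 array lay between 2 and 7 and between 1 and 2 (higher, 2 without Col_BL replicate 1 and 3 without Col replicate 2, and lower, 1 without Col replicate 1 or Col_BL replicate 2). For BL after light, 756 calls became 214 with wild-type arrays alone and 472 with array weights, and 299 (without Col_BR_DL replicate 2) to 965 with 1 array left out, 350 without Col_DL replicate 1. Members higher numbered 3, then 7 with the replicate block and 5 with wild-type arrays alone and the block, and lower 0 with wild-type arrays alone. Without 1 array they lay between 3 and 5 (5 without Col_DL replicate 2 or Col_BR_DL replicate 1) and between 0 (without Col_DL replicate 1 or Col_BR_DL replicate 2) and 2 (without Col_DL replicate 2). The cause of these shifts was not tested. The weights, and a fit without the dark-grown det2 arrays that moved no count by over 1.5 times, were chosen after seeing the data. Deviations of same-numbered arrays correlated between 0.227 and 0.429 in wild type, with 1 control probe set at 545.6 to 1549 on replicate 1 and 6.9 to 25.1 on replicate 2, and between -0.033 and 0.016 in det2, so pairing is a hint from the data in wild type only.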
